A study of Homo sapiens with 6 samples.

Results

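Genes of ADP-ribosylation were followed in HER2+ breast cancer cells after depletion of DUSP6, 10 in all, and they were taken from the table by their symbols alone. They are the DNA repair enzymes PARP1 and PARP2 and their relatives PARP8, PARP9, PARP10, PARP11, PARP12 and PARP14. Also followed were the PARP9 partner DTX3L and the zinc finger protein ZC3HAV1. All 10 were found among the 22807 genes of the table, and all 10 passed the filter on low values.

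MDA-MB-453 is a HER2-amplified cell line of luminal and apocrine character, and DUSP6 is a phosphatase that inactivates the ERK kinases. Libraries of polyadenylated RNA were made from 3 samples of cells given DUSP6 siRNA, labelled DUSP6 KD in genotype, and from 3 samples of cells given scrambled siRNA, labelled WT. Several different siRNAs were used within each group, which takes separate transfections, but which siRNA went into which library and how long after transfection RNA was taken were not given in the sources used here. An effect of a single siRNA therefore cannot be told apart from the spread between libraries. The p-values measure that spread, to which siRNA, transfection and library preparation may all add. The study lists a concentration for the DUSP6 siRNAs but none for its negative controls, so equal amounts in both groups cannot be taken as given. An effect of the amount or kind of siRNA, apart from the loss of DUSP6, was not tested.

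ADP-ribosyltransferases of the PARP family take ADP-ribose from NAD and attach it to proteins or nucleic acids, PARP1 and PARP2 as long chains at broken DNA and most of the others as single units. Interferon, a cytokine made when viral nucleic acid is sensed, acts through the ISGF3 complex, to which STAT2 and IRF9 belong and which binds interferon-stimulated response elements and raises a set of antiviral genes that is known to include several PARPs. PARP9 forms a complex with DTX3L, a ubiquitin ligase of the Deltex family, and ZC3HAV1, also called ZAP or PARP13, binds CpG-rich viral RNA but has lost its catalytic activity.

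The stretches of 100 bases before the start of 4 genes are shown because PARP9, PARP12 and PARP14 hold the core letters of an interferon-stimulated response element there and PARP1 does not. They were taken from RefSeq on GRCh38.p14, are written 5′ to 3′ on the strand of the gene and end at the base before the start, and the capitals mark the match, which is GAAA and GAAA separated by 2 bases of any kind, searched on both strands. The stretches lie at chr3:122564301-122564400 on the minus strand for PARP9, before the second of its 2 listed starts (the window of the first start holds no match), at chr3:122680739-122680838 on the plus strand for PARP14, at chr7:140062952-140063051 on the minus strand for PARP12 and at chr1:226408094-226408193 on the minus strand for PARP1.
PARP9: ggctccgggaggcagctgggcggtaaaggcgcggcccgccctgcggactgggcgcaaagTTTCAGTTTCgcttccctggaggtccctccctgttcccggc
PARP14: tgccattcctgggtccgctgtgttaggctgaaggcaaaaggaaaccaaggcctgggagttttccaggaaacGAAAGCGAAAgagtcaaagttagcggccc
PARP12: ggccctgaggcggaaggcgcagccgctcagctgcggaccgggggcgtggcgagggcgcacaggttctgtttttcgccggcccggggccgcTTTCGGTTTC
PARP1: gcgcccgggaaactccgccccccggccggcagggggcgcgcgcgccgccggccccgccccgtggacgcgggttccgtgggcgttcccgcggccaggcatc

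PARP9 and DTX3L are transcribed away from each other, and the start of DTX3L lies 38 bases from the second start of PARP9. The same 10-base match therefore lies in the windows of both genes, at bases -41 to -32 from the PARP9 start and -6 to 4 from the DTX3L start. Read on the strand of DTX3L, with 8 bases on each side, at chr3:122564324-122564349, it is written as follows.
DTX3L: agggaagcGAAACTGAAActttgcgc

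The table of promoters, which covers 250 bases before to 50 bases after each start, had an entry for 9 members, and PARP10 was not analysed in it. The match was found in 4 of the 9, PARP9, DTX3L, PARP12 and PARP14, of which PARP9 and DTX3L share the same site. It was not found in the windows of PARP1, PARP2, PARP8, PARP11 or ZC3HAV1. Of all 35116 windows in the table, 3.57% held it, and of all 27305 genes with a window, 4.38% did. A second motif, TTC and GAA separated by 3 bases, which is the core of the site bound by STAT dimers, was found in PARP14, PARP2 and ZC3HAV1, against 9.38% of genes. In PARP14 it ran from -40 to -32 and left 2 bases before the GAAA match, which began at -29. These are descriptions of letters in fixed windows and do not show that a factor was bound.

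Levels are given as the deposited normalized read counts. Every value was a whole multiple of what 1 read was worth in its library, so that reads could be recovered, and the libraries held 45546981 to 85729785 reads. DUSP6 itself was at 209, 110 and 114 in the scrambled siRNA libraries and at 39.4, 24.5 and 35.2 in the DUSP6 siRNA libraries. The log2 fold change was -2.05 (SE 0.25, limma adjusted p = 3.09e-04). The DUSP6 groups did not overlap, so the labels and the targeted gene went together in all 6 libraries. Of 6 markers of HER2+ luminal cells, ERBB2, GATA3, FOXA1, KRT8, KRT18 and EPCAM, none was low, and their summed level went from between 3037 and 4077 with scrambled siRNA to between 2279 and 2446 with DUSP6 siRNA. ERBB2, GATA3, FOXA1, KRT8 and KRT18 were called lower, whereas EPCAM was not called. Of all genes tested, 24.7% were called lower. The call of KRT8 was lost in 10 of 15 alternatives, with adjusted p-values of up to 0.299. Of 9 markers of other cell types, CD3E was not analysed here, PTPRC, CD14, COL3A1, PECAM1, VWF, KRT5 and KRT14 stayed below 1 in every library and COL1A1 was called higher, at a mean of 92.2 against 173. The summed level of these 8 markers, most of it COL1A1, was 82.1 to 106 with scrambled siRNA and 163 to 194 with DUSP6 siRNA, and its part in the results was not tested. In bulk samples such as these, fewer cells of a kind and less RNA per cell cannot be told apart.

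With DUSP6 siRNA, 7 of the 10 members rose, PARP14, DTX3L, PARP10, PARP9, PARP12, PARP11 and ZC3HAV1, 2 fell, PARP1 and PARP8, and PARP2 was not called. Across the 12862 genes tested, 19.7% were called higher, 24.7% lower and 44.5% in either direction at a limma adjusted p under 0.05. The 2 groups did not overlap for the same 7 members on the higher side and the same 2 on the lower side, against 26.7% and 31.1% of all genes tested. The median log2 fold change of the members was 1.62, beside -0.01 for all genes tested. The members fell into 3 steps. PARP14, DTX3L, PARP10, PARP9 and PARP12 were raised by more than 2 on the log2 scale, PARP11 and ZC3HAV1 by less than 1, and the remaining 3 were not raised. Under other settings PARP11 and ZC3HAV1 reached up to 1.22 and 1.13, so the bound of 1 depends on the processing.

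**Figure D1:**
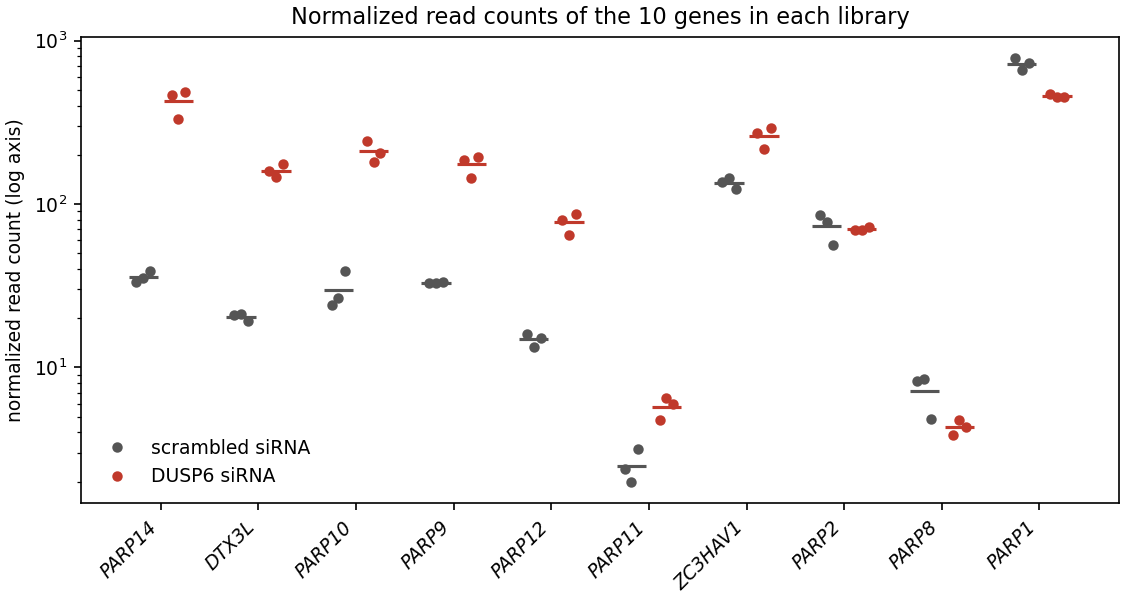
Normalized read count of each of the 10 genes in the 3 scrambled siRNA and the 3 DUSP6 siRNA libraries, 1 point a library, on a log axis. For PARP9, PARP10, PARP12, PARP14 and DTX3L the points of the groups lie far apart, for PARP1 and PARP8 the DUSP6 siRNA points lie lower, and for PARP2 they overlap.

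PARP14, a large mono-ADP-ribosyltransferase with macrodomains that read ADP-ribose, had the largest change among the members. It stood at 33.2, 35.0 and 38.7 in the scrambled siRNA libraries and at 461, 331 and 487 in the DUSP6 siRNA libraries. The lowest DUSP6 siRNA value was thus several times the highest scrambled siRNA value. The ratio of the means was 12.0, with a log2 fold change of 3.53 (SE 0.14, 95% interval 3.20 to 3.85, limma adjusted p = 8.51e-07), and it ranked 30 among the 12862 genes by rise.

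PARP9 is a protein with macrodomains that works as a heterodimer with DTX3L. Its values with scrambled siRNA were nearly equal, at 32.9, 33.0 and 33.2, and they were 186, 144 and 195 with DUSP6 siRNA. The groups were far apart, by 5.30-fold between means, and the log2 fold change was 2.36 (SE 0.12, limma adjusted p = 2.95e-06). DTX3L, the ubiquitin ligase of the pair, was at 20.8, 21.3 and 19.2 with scrambled siRNA and at 158, 146 and 176 with DUSP6 siRNA. No library of one group reached the other, the means differed by 7.84-fold, and the log2 fold change was 2.91 (SE 0.10, limma adjusted p = 3.29e-07).

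The partners did not rise by quite the same factor. In the scrambled siRNA libraries the log2 value of DTX3L less that of PARP9 averaged -0.67 ± 0.08 (SD, n = 3). In the DUSP6 siRNA libraries it averaged -0.12 ± 0.12 (SD, n = 3), which is 0.55 higher. The groups did not overlap, and the exact 2-sided permutation test gave p = 0.1, the smallest that 3 against 3 libraries allow. PARP14 rose beyond PARP9 by 1.17 on the same scale, also without overlap and with an exact permutation p = 0.1.

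PARP10, a mono-ADP-ribosyltransferase known to restrict some RNA viruses, was at 24.1, 26.4 and 38.8 with scrambled siRNA and at 244, 181 and 205 with DUSP6 siRNA. The third scrambled siRNA library was above the other two, but still far below the DUSP6 siRNA libraries. The means differed by 7.06-fold, and the log2 fold change was 2.80 (SE 0.18, limma adjusted p = 9.47e-06). PARP10 shares 8.64% of its exon bases with GRINA and SPATC1, which lie on the opposite strand, and the default settings named for the read counting do not use strand, so its count carries that uncertainty. GRINA, at means of 511 and 557, was not called (log2 fold change 0.12), and SPATC1 was called lower (log2 fold change -0.39, limma adjusted p = 0.0372), a call that was lost on leaving out any DUSP6 siRNA library (adjusted p of up to 0.123).

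PARP12, a zinc finger mono-ADP-ribosyltransferase of the same antiviral group, was at 15.9, 13.3 and 15.2 with scrambled siRNA and at 79.6, 65.0 and 86.5 with DUSP6 siRNA. Every DUSP6 siRNA library lay above every scrambled siRNA library. The ratio of means was 5.20 and the log2 fold change 2.30 (SE 0.13, limma adjusted p = 4.88e-06).

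ZC3HAV1 was the most abundant per length of the 7 members that rose in the scrambled siRNA libraries, though not in the DUSP6 siRNA libraries. It went from 136, 145 and 123 with scrambled siRNA to 271, 217 and 293 with DUSP6 siRNA. The groups were separate, although the ratio of means was only 1.94 and the log2 fold change 0.94 (SE 0.12, limma adjusted p = 4.53e-04). PARP11, a mono-ADP-ribosyltransferase that acts on the turnover of the interferon receptor, was scarce, at 2.38, 1.99 and 3.15 with scrambled siRNA and 4.73, 6.51 and 5.93 with DUSP6 siRNA. These values rest on 104 to 532 reads per library. The groups did not overlap, the ratio of means was 2.28, and the log2 fold change on the log2(value + 1) scale, which understates the change of a gene this low, was 0.94 (SE 0.16, limma adjusted p = 0.00143).

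Among the 3 DUSP6 siRNA libraries, the second held the lowest value of 6 of the 7 members that rose, all but PARP11, which was lowest in the first. DUSP6 itself was lowest in the second library too, at 24.5, so the library with the least DUSP6 had the smallest rise of these 6 members. A link between the level left and the rise was not tested.

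PARP8, a mono-ADP-ribosyltransferase of little known function, went the other way from the 7 members that rose, so the name antiviral enzymes does not describe its change here. It was at 8.24, 8.43 and 4.86 with scrambled siRNA and at 3.84, 4.73 and 4.33 with DUSP6 siRNA, from 190 to 554 reads a library. The groups were separate by a narrow margin, between 4.73 and 4.86. The log2 fold change was -0.60 (SE 0.19, limma adjusted p = 0.0279), and the call was lost on leaving out either of the first 2 scrambled siRNA libraries or any DUSP6 siRNA library, with limma adjusted p-values from 0.0614 to 0.0944.

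PARP1, the main sensor of DNA strand breaks, was at 783, 662 and 726 with scrambled siRNA and at 470.0, 453 and 454 with DUSP6 siRNA. Every DUSP6 siRNA library lay below every scrambled siRNA library, by 1.58-fold between means, with a log2 fold change of -0.65 (SE 0.09, 95% interval -0.87 to -0.44, limma adjusted p = 7.48e-04). PARP2, which shares the repair role, was at 85.1, 77.7 and 56.1 with scrambled siRNA and at 69.6, 69.0 and 72.4 with DUSP6 siRNA. The DUSP6 siRNA values lay inside the range of the scrambled siRNA values, and the log2 fold change was -0.03 (SE 0.14, 95% interval -0.36 to 0.29, limma adjusted p = 0.875).

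**Figure D2:**
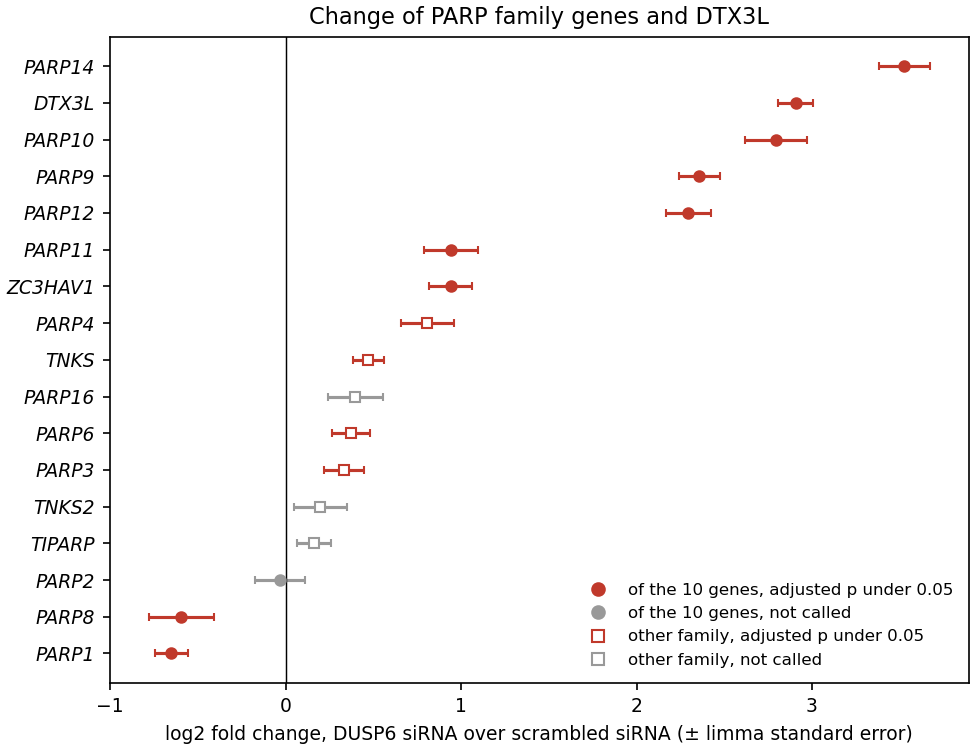
Log2 fold change, DUSP6 siRNA over scrambled siRNA, of the members and of the other tested PARP family genes, with bars of 1 limma standard error. PARP14, DTX3L, PARP10, PARP9 and PARP12 lie above 2, every other gene lies below 1, and PARP1, PARP8 and PARP2 lie below 0, PARP2 by less than its standard error.

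Set against the repair enzymes within each library, the 8 other members changed as follows. The log2 difference from PARP1 rose by 4.18 for PARP14, 3.56 for DTX3L, 3.45 for PARP10, 3.01 for PARP9 and 2.95 for PARP12. It rose by 1.60 for PARP11 and 1.59 for ZC3HAV1. For these 7 the groups did not overlap, and each exact permutation test gave p = 0.1, the smallest possible. PARP8 moved by 0.06 against PARP1 with overlapping groups (exact permutation p = 0.9), and its sign turned under other settings. PARP2, which was not called, gave a second reference. Against it, PARP14 rose by 3.56, DTX3L by 2.94, PARP10 by 2.83, PARP9 by 2.39, PARP12 by 2.33, PARP11 by 0.98 and ZC3HAV1 by 0.97, and PARP8 decreased by 0.56 on the log2 scale (exact permutation p = 0.1 each). In PARP14 the log2 difference from PARP1 was -4.52, -4.20 and -4.19 with scrambled siRNA and -0.03, -0.45 and 0.10 with DUSP6 siRNA. In all, 19 such differences were tested, and over them an exact p of 0.1 became 0.106 after Benjamini-Hochberg adjustment.

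Counts of different genes can only be set in order after division by transcript length. Per kilobase of the MANE Select transcript, PARP1 led with scrambled siRNA at 182 ± 15.2 (SD, n = 3), followed by PARP2 at 40.0 ± 8.24 and ZC3HAV1 at 18.7 ± 1.53. PARP9 came next at 10.8 ± 0.06 and PARP10 at 8.49 ± 2.25, which overlapped, then PARP12 at 4.91 ± 0.45 and PARP14 at 4.63 ± 0.37, which overlapped as well. DTX3L stood at 3.54 ± 0.19, and PARP8 and PARP11, at 0.960 ± 0.27 and 0.563 ± 0.13, overlapped at the end.

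With DUSP6 siRNA the order was another one. PARP1 was still first at 115 ± 2.43 (SD, n = 3), but PARP10 at 59.9 ± 9.11, PARP9 at 57.4 ± 8.80 and PARP14 at 55.4 ± 10.9 now stood above PARP2 at 38.5 ± 1.00, and their libraries overlapped with each other. ZC3HAV1 at 36.3 ± 5.46 overlapped with PARP2 and with DTX3L at 27.8 ± 2.66, and DTX3L with PARP12 at 25.5 ± 3.64. PARP11 at 1.29 ± 0.20 and PARP8 at 0.575 ± 0.06 remained far below the rest. The order depends on the length used. With all exons of the gene in place of 1 transcript, PARP1 has 18399 bases and not 3978, and with DUSP6 siRNA PARP14 is then first at 41.5 per kilobase and PARP1 the fifth at 24.9.

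**Figure D3:**
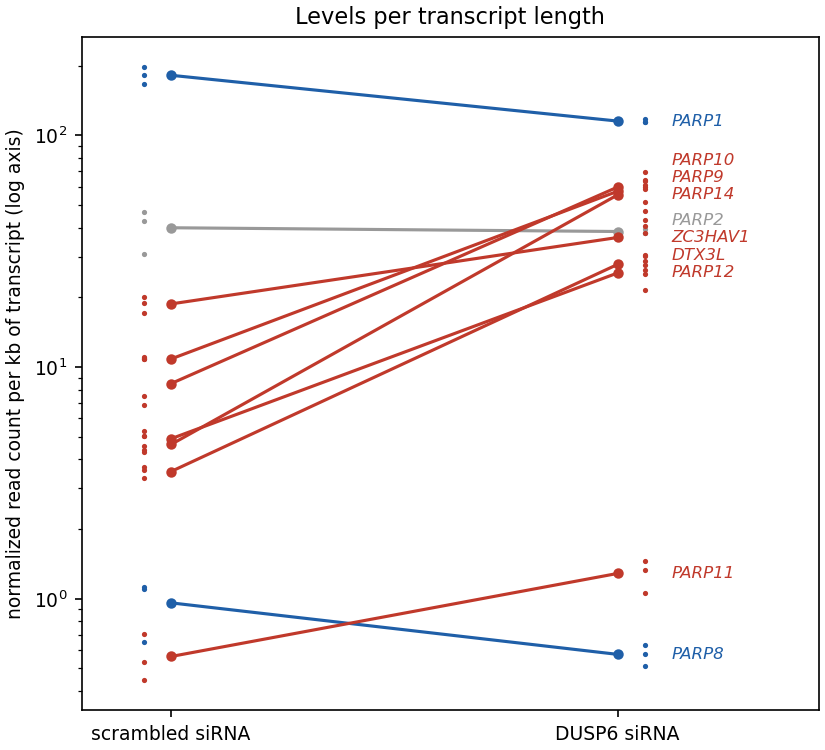
Mean normalized read count per kilobase of the MANE Select transcript for the 10 genes in the scrambled siRNA and the DUSP6 siRNA group (n = 3 each), on a log axis, with 1 line a gene. The lines of PARP9, PARP10 and PARP14 cross that of PARP2 on the way to the DUSP6 siRNA group, where they stand between 55.4 and 59.9 against 38.5.

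PARP9, DTX3L and PARP14 lie in 1 region of chromosome 3, with the starts of PARP9 and PARP14 116 kb apart, at chr3:122527924-122564784, chr3:122564338-122575203 and chr3:122680839-122730840. Between DTX3L and PARP14 lies PARP15, which was under the filter with 0 to 4 reads a library. Within 500 kb of the PARP9 start, the table held 14 genes that had a promoter entry. Of these, 9 were tested, 6 of them not members. Genes without such an entry had no start here and were left out. On one side, KPNA1, WDR5B, FAM162A and CCDC58 were not called (log2 fold changes -0.14, 0.19, -0.01 and -0.14). On the other, HSPBAP1 and SLC49A4 were called higher, by 0.48 (SE 0.12, limma adjusted p = 0.0124) and 0.73 (SE 0.17, limma adjusted p = 0.00702), the former not without the first or the third DUSP6 siRNA library (adjusted p of up to 0.0653). Among all genes tested, 19.7% were called higher. The exons of PARP9 and DTX3L share 139 bases on opposite strands, which is 1.56% and 2.41% of their exon bases.

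**Figure D4:**
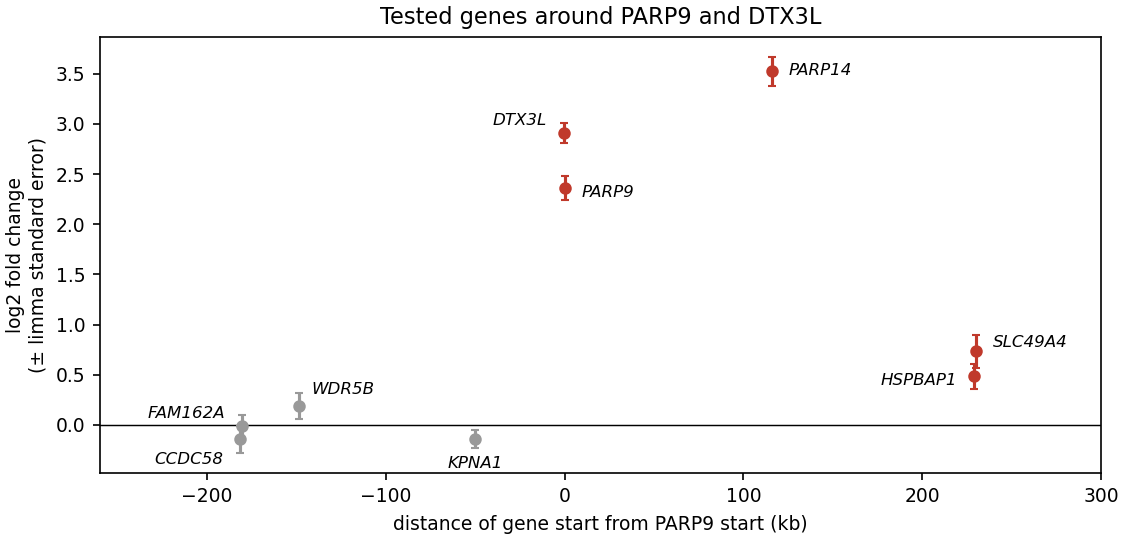
Log2 fold change of the 9 tested genes with a promoter entry whose start lies within 500 kb of the PARP9 start. It is drawn against the distance of the starts in kilobases, with bars of 1 limma standard error and genes called higher in red. PARP9, DTX3L and PARP14 lie between 2.36 and 3.53 and their 6 neighbours between -0.14 and 0.73.

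Over all members, the nearest tested gene on each side gave 16 genes that are not members. Of these, 2 were called higher, 6 lower and 8 were not called, with a median log2 fold change of -0.12. Over all genes tested, 19.7% were called higher and 24.7% lower. ZC3HAV1L, the paralog that lies beside ZC3HAV1, was among those not called (log2 fold change 0.15, limma adjusted p = 0.280), and TEP1, beside PARP2, was called higher (log2 fold change 0.64).

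The other PARP genes were summarised in the same way. Of 8 other PARP genes, 7 were tested, 4 were called higher, none lower and 3 were not called, and their median log2 fold change was 0.37. The shares over all genes tested were 19.7% higher and 24.7% lower. PARP4, the vault PARP, rose by 0.81 (limma adjusted p = 0.00261), from between 3.12 and 3.16 to between 4.84 and 7.69. TNKS, a tankyrase that acts at telomeres and in WNT signalling, rose by 0.47, PARP6 by 0.37 and PARP3, a further DNA break enzyme, by 0.33. PARP16 (0.40), TNKS2 (0.20) and TIPARP (0.16) were not called. The call of PARP3 was lost without a filter and on leaving out the second scrambled siRNA or any DUSP6 siRNA library (adjusted p of up to 0.144), and that of PARP6 without the first or the third DUSP6 siRNA library (adjusted p of up to 0.0833).

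Both genes of the ISGF3 complex examined here were called higher, against 19.7% of all genes tested. IRF9, its DNA-binding part, was at 12.0, 13.3 and 26.5 with scrambled siRNA and at 219.9, 222 and 225 with DUSP6 siRNA, and its log2 fold change was 3.70 (SE 0.24). STAT2 was at 52.4, 57.0 and 59.0 with scrambled siRNA and at 169.7, 139 and 179 with DUSP6 siRNA, and its log2 fold change was 1.51 (SE 0.11). Neither gene had overlapping groups.

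Genes that work with the antiviral members showed a mixed picture. Of 8 cofactors of ZAP, 4 were called higher, 1 lower and 3 were not called, against 19.7% higher and 24.7% lower of all genes tested. RNF135 rose by 0.64, TRIM25, the ubiquitin ligase that ZAP needs, by 0.59 and KHNYN, an endonuclease recruited by ZAP, by 0.49, while PARN, a deadenylase, fell by 0.38 on the log2 scale. The call of KHNYN was lost in 7 of 15 alternatives, among them 5 of the 6 that leave out a library (adjusted p of up to 0.123), and that of PARN without the third DUSP6 siRNA library (adjusted p = 0.0529). Of the other Deltex ligases, DTX3 rose by 0.63, DTX2 fell by 0.78 on the log2 scale, DTX4 was not called and DTX1 was under the filter.

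Among 6 enzymes that remove ADP-ribose, 5 were tested, and 2 were called higher and 1 lower. The shares over all genes tested were 19.7% and 24.7%. MACROD2 and ADPRS, the latter named ADPRHL2 in the table, rose by 0.77 and 0.53, and MACROD1, a mitochondrial macrodomain hydrolase, fell by 0.94 on the log2 scale (limma adjusted p = 5.10e-04). PARG, which takes apart the chains, and OARD1 were not called, and ADPRH was under the filter. The MACROD2 call was lost without a filter and without the first scrambled siRNA or the second DUSP6 siRNA library (adjusted p of up to 0.0804).

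Of 8 partners of PARP1 and PARP2 in strand break repair, 7 were tested, none was called higher and 2 were called lower. Across all genes tested, 19.7% were called higher and 24.7% lower. TDP1 fell by 0.49 and LIG3 by 0.27 on the log2 scale, but the call of LIG3 was lost in 10 of 15 alternatives, with adjusted p-values of up to 0.194. XRCC1, POLB, APTX, HPF1 and CHD1L were not called, and APLF was under the filter. Of 8 genes of NAD supply, 7 were tested, and NADSYN1 rose by 0.34, whereas QPRT and NMNAT3 fell by 0.61 and 0.54 on the log2 scale. NAMPT, NMNAT1, NAPRT and NMRK1 were not called, NMNAT2 was under the filter, and the NADSYN1 call was lost in 7 of 15 alternatives (adjusted p of up to 0.130).

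The profile of PARP9 over the 6 libraries was compared with that of every tested gene, as a description. IRF1, PARP14, APOL3, SHFL and APOL2 were the 5 most alike, each with a Pearson r of 0.999 on the log2 scale. PARP12 was the 15th with r = 0.998 and DTX3L the 24th with r = 0.997. PARP10 stood at 0.987, ZC3HAV1 at 0.978 and PARP11 at 0.914, whereas PARP2 stood at -0.08, PARP8 at -0.80 and PARP1 at -0.97. The 6 points fall into 2 groups and share library and scaling, so r is near 1 for any gene whose groups lie as far apart.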

How the data were processed

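RNA-seq was made from 6 libraries, 3 a group, with a stranded mRNA kit. Per the labels and the study's methods, the authors aligned reads to hg38 and assigned them to RefSeq genes with Rsubread 2.0.0 at default settings, and bcl2fastq and edgeR stand in the submitters' processing notes. The deposited values are normalized read counts, a signal scaled per library by the authors with a method not given in the sources used here. They summed to between 1033110 and 1135124 in the scrambled siRNA libraries and to between 920927 and 924989 in the DUSP6 siRNA libraries. A scaling to equal sums was not run, and it would make every fall smaller and every rise larger. All values were whole multiples of 1 read, to a tolerance of 0.01, and reads were recovered from them.

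Groups came from the sample titles. The test was limma 3.58.1 (R 4.3.3) on log2(value + 1) for genes whose mean over the libraries reached 1, with empirical Bayes moderation, a mean trend and Benjamini-Hochberg adjustment over all 12862 genes tested, and called at an adjusted p under 0.05. SE is limma's standard error. The members had 104 to 60249 reads per library. Differences between members within a library were tested with exact 2-sided permutation tests. Positions, gene starts and promoters came from RefSeq, and exon and transcript lengths and exon overlaps from GENCODE, both on GRCh38. Of the 22807 gene IDs, 22359 matched RefSeq's gene table.

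The text names all members, DUSP6, the markers and most called genes of the related lists, with many that were not called. It also names the list genes under the filter, some neighbours of the members, and the 5 genes most like PARP9. The members, lists and markers were chosen with earlier results of these data known. Each step was varied in turn, through a smaller pseudocount (0.1), no filter or one at a mean of 10, median-of-ratios and quantile scaling, a replicate block, no trend, edgeR 4.0.16 and DESeq2 1.42.0 on the recovered reads, and leaving out each library. The scripts were tested on simulated data. Some genes of the related lists are not reported here.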

Additional observations from a re-analysis of the deposited data

How the results depend on the processing

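The log2 fold changes of DUSP6, PARP1, PARP9, PARP10, PARP11, PARP12, PARP14, DTX3L and ZC3HAV1 kept direction and call under every alternative run, 14 for PARP11, which falls under a minimum mean of 10, and 15 for the others. They ranged from 3.42 to 3.70 for PARP14, 2.84 to 3.01 for DTX3L, 2.67 to 3.00 for PARP10, 2.28 to 2.49 for PARP9, 2.21 to 2.41 for PARP12, 0.82 to 1.22 for PARP11, 0.85 to 1.13 for ZC3HAV1 and -0.72 to -0.40 for PARP1, where -0.40 came from quantile normalization. PARP2 (-0.03) turned to 0.0595 with quantile normalization and ranged from -0.21 to 0.0883 when 1 library was left out, never called. PARP8 kept its value of -0.60 without a filter but lost its call (adjusted p = 0.0823), and ranged from -0.82 to -0.48 on leaving out 1 library, with the call kept only without the third scrambled siRNA library. The number of members called lower was therefore 1 in place of 2 without a filter, 1 with a minimum mean of 10, where PARP8 is not tested, and 1 to 2 on leaving out a library. The number of genes called higher, 2540, was 1639 with a minimum mean of 10, where fewer genes are tested, and 1535 to 3213 on leaving out a library, lowest without the second DUSP6 siRNA library and 1686 without the third.

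Relative to PARP1, the change of PARP8 (0.06) turned to -0.0347 with a pseudocount of 0.1 and to -0.30 with quantile normalization, and ranged from -0.17 to 0.24 on leaving out a library. That of PARP11 (1.60) was 1.83 with a pseudocount of 0.1 and 1.23 with quantile normalization, which also gave 2.73 for PARP12 and 3.40 for DTX3L. The cause of these shifts was not tested.

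Same-numbered libraries did not deviate together (r = 0.01, 0.09 and -0.08), but this does not exclude a pairing by number. A replicate block took the limma adjusted p of DUSP6 from 3.09e-04 to 8.38e-07 and that of PARP14 from 8.51e-07 to 3.14e-09. With a replicate block 2495 genes were called higher and 3096 lower, 7 and 2 members among them, and no call of a member changed, while LIG3 lost its call. The calls of 31 genes from the related lists, the markers and the named neighbours of members were followed as well. Of these, 20 kept their call under every alternative that gave a value, 11 lost it under at least 1 and none turned.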
